A study of Mus musculus with 2 samples.

Results

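The 10 genes described here mark the arterial (Gja4, Gja5, Efnb2), venous (Ephb4, Nr2f2, Ackr1) and activated (Selp, Sele, Vcam1, Icam1) states of endothelial cells (ECs), the cells that line blood vessels. They were read in EC barcodes of Lewis lung carcinoma (LLC) tumors. A barcode stands for 1 droplet and carries UMIs, the molecular tags that count captured transcripts. A barcode was called endothelial where the summed UMIs of 10 EC markers (Pecam1, Cdh5, Cldn5, Egfl7, Tie1, Ptprb, Ecscr, Ramp2, Esam and Robo4, none of them among the 10 genes) reached 20% of a reference level and at least 4 markers had a UMI. This gave 74 EC barcodes of 12220 kept in the control library, a share of 0.606% (exact binomial 95% interval 0.476 to 0.760), and 96 of 22498 in the knockout library, a share of 0.427% (0.346 to 0.521).

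Arteries, veins and capillaries are lined by ECs with distinct programs. Gja4 and Gja5 encode connexin 37 and connexin 40, which form gap junctions between arterial ECs, and Efnb2 encodes ephrin-B2, the arterial ligand of the receptor EphB4, which Ephb4 encodes and veins carry. Nr2f2 encodes COUP-TFII, a nuclear receptor that maintains venous identity by holding back Notch signaling, and Ackr1 encodes the atypical chemokine receptor of venules. Selp, Sele, Vcam1 and Icam1 encode P-selectin, E-selectin, VCAM-1 and ICAM-1, the adhesion molecules through which activated venules slow, bind and arrest leukocytes.

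The series compares tumors of Gucy1b1 flox/flox mice, called sGC Ctr, with tumors of Cspg4-CreERT2::Gucy1b1 flox/flox mice, called sGC ΔPC, in which the β1 subunit of soluble guanylate cyclase, the nitric oxide receptor, is deleted from cells that use the Cspg4 promoter, pericytes among them. Both groups were C57BL/6, were given tamoxifen in 5 doses when 4 weeks old, and subcutaneous LLC cells, a transplanted mouse lung cancer line, at 8 weeks. The controls carried the floxed alleles without Cre, which is knocked in at Cspg4. Each group is 1 library pooled from 3 tumors dissected 2 weeks after inoculation. Mice cannot be told apart within a library, so no test was run and each interval below covers counting error only.

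The libraries differed in depth, with median UMIs of 35776.5 and 8685 per kept barcode and 131 barcode sequences in common. EC barcodes had a median of 25152 UMIs in sGC Ctr and 9973 in sGC ΔPC, and 2184739 and 1670308 UMIs in sum. All 10 EC markers were present in both libraries, Pecam1 in 73 of 74 and 87 of 96 barcodes, Cdh5 in 71 and 93 and Ptprb in 68 and 54. The median level of the summed EC markers was 68.7 UMIs per 10000 in sGC Ctr ECs and 41.6 in sGC ΔPC ECs. Of barcodes with at least 4 markers, 1 and 31 lay just below the gate, at 15% to 20% of the reference. Just above it, at 20% to 25%, were 5 and 15 EC barcodes, so the sGC ΔPC ECs are less sharply set off. The 10 pericyte markers summed to 326 and 149 UMIs in EC barcodes, 1.52% and 1.42% of their level in pericytes, with 2 and 4 of them at 0. Kcnj8 held 211 and 80 of these UMIs and Abcc9 103 and 60, and the defining Rgs5 and Pdgfrb had at most 2 in either library. RNA of cancer cells, measured by Rhox5, Krt18, Krt8 and Hmga2, stood at 16.0% of its level in cancer barcodes in sGC Ctr ECs and at 29.6% in sGC ΔPC ECs. Results are therefore also given for the 60 and 55 EC barcodes with a cancer-cell RNA share under 25%, where these levels were 4.97% and 4.51%. Gucy1b1 in pericyte barcodes was at 60 UMIs (107 CPM, UMIs scaled to the total of the class) in sGC Ctr and 16 (23.6 CPM) in sGC ΔPC, and in EC barcodes at 2 and 0.

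The 10 genes lie on 7 chromosomes of the mouse assembly GRCm38 in GENCODE vM21. Gja4 spans 127311421 to 127314039 on the minus strand of chromosome 4, and Gja5 96904693 to 97077416 on the plus strand of chromosome 3. Ackr1 spans 173331886 to 173333750 on the minus strand of chromosome 1, which also holds Sele (164048234 to 164057677) and Selp (164115264 to 164150026) on the plus strand. Ackr1 overlaps Cadm3 on its own strand and Efnb2 overlaps 3 other annotated genes on its strand, so that some reads may not be assignable to 1 gene. Efnb2 spans 8617434 to 8661242 on chromosome 8 and Nr2f2 70351944 to 70366735 on chromosome 7, both on the minus strand, and Ephb4 137350109 to 137378669 on chromosome 5 on the plus strand. Vcam1 spans 116109949 to 116129688 on the minus strand of chromosome 3 and Icam1 21015985 to 21028817 on the plus strand of chromosome 9. Gja5, Ephb4, Nr2f2, Selp, Vcam1 and Icam1 overlap genes on the opposite strand, and whether counting used strand is not given in the sources used here. RefSeq promoters of the same build were found for 9 of the 10 genes. The 250 bases before the RefSeq start are shown for Gja4, Ackr1 and Selp, because Gja4 and the pair of Ackr1 and Selp were used to divide the EC barcodes. They lie at chr4:127314040-127314289 (minus strand), chr1:173333504-173333753 (minus strand) and chr1:164115014-164115263 (plus strand), written 5′ to 3′ on the gene's strand. The windows of Gja4 and Selp adjoin the GENCODE span of the gene. Nearly all of the Ackr1 window, with both of its marked motifs, lies inside the GENCODE span of Ackr1, not upstream of it. Capitals mark TGGGAA, the core of the RBPJ motif of Notch signaling, and AGGTCA, the half-site of nuclear receptors such as COUP-TFII, on either strand (TTCCCA and TGACCT when read on the other).
Gja4: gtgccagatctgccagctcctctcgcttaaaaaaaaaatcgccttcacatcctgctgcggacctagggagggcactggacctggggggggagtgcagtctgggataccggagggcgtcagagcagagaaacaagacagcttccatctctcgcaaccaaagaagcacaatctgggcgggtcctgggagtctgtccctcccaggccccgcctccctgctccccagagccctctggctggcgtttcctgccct
Ackr1: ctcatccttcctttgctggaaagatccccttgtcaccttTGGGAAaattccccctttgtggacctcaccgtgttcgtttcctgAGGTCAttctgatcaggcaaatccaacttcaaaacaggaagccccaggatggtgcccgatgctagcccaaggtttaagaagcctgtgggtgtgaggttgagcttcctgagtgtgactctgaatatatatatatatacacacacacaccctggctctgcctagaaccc
Selp: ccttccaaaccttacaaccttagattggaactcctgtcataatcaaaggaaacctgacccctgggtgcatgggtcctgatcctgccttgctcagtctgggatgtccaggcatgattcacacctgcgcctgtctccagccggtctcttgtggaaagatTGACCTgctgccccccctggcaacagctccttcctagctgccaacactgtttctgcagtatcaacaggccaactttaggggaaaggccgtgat
Ackr1 and Selp each held AGGTCA, which 14.0% of the 32851 RefSeq promoters hold in a window of the same length. The 2 motifs of Ackr1 did not overlap. TGGGAA was in Ackr1 and Sele (21.6% of all promoters) and the sequence TATAAA was in Efnb2 and Sele (12.4%). The NF-κB motif was searched only in the strict form GGGRNNYYCC (R for A or G, Y for C or T, N for any base). This form was in none of the 9 (7.25% of all promoters). Looser forms were not searched, so this does not show that these promoters lack an NF-κB site. All motifs were searched on both strands, and the matches are descriptions of letters, not sites.

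The arterial gene Gja4 was not highest in ECs but in pericytes. Its level was 281 CPM in the 44 pericyte barcodes of sGC Ctr (157 UMIs, exact Poisson 95% interval 239 to 328 CPM) and 151 CPM in the 68 of sGC ΔPC (102 UMIs, 123 to 183). In ECs it was at 78.7 CPM (172 UMIs, 67.4 to 91.4) and 37.7 CPM (63 UMIs, 29.0 to 48.3), so that pericytes stood 3.57-fold and 3.99-fold above ECs. Fibroblasts, granulocytes and T cells had no Gja4 UMI in either library, and of cancer barcodes, which are deeper, 0.290% and 0.345% had one against 20.3% and 5.21% of ECs. Gja4-positive EC barcodes held no more than 1 UMI of pericyte markers per 10000 UMIs except 2 of the sGC Ctr barcodes, at 1.77 and 2.22.

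Gja5 was almost restricted to ECs, with 64 UMIs in sGC Ctr (29.3 CPM, 22.6 to 37.4) and 10 in sGC ΔPC (5.99 CPM, 2.87 to 11.01). Outside ECs there was 1 UMI in sGC Ctr pericytes, 2 in sGC ΔPC macrophages, and 1 and 2 in the 6200 and 11005 cancer barcodes. Efnb2 was highest in ECs at 81.9 CPM (70.4 to 94.9) and 81.4 CPM (68.3 to 96.3), 3.04-fold and 2.96-fold above fibroblasts, the class next in order. Pericytes followed at 14.3 and 13.3 CPM and cancer barcodes at 10.6 and 11.8 CPM, and the intervals of these 2 classes overlapped.

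Among the venous genes, Ephb4 was highest in ECs at 34.8 CPM (27.4 to 43.5) and 30.5 CPM (22.7 to 40.1), 3.89-fold and 3.91-fold above the class next in order. That class was pericytes in sGC Ctr and fibroblasts in sGC ΔPC, which did not differ beyond their intervals. Nr2f2 was highest in pericytes, at 293 and 221 CPM, and stood at 48.5 and 51.5 CPM in ECs. Cancer barcodes were above ECs in Nr2f2 (63.5 and 77.0 CPM), and fibroblasts (45.5 and 47.2 CPM) were within the EC interval. In ECs with a low cancer-cell RNA share Nr2f2 was at 48.7 and 57.4 CPM.

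Ackr1 was at 36.2 CPM (79 UMIs) in sGC Ctr ECs and at 4.19 CPM (7 UMIs) in sGC ΔPC ECs. Fibroblasts were next, with 34 UMIs in 21 of 123 sGC Ctr barcodes (10.2 CPM) and 10 UMIs in 6 of 272 sGC ΔPC barcodes (2.89 CPM), and in sGC ΔPC the 2 classes had overlapping intervals. Fibroblast barcodes with Ackr1 held EC markers at a median of 1.19 and 0.82 UMIs per 10000, against 82.2 and 82.0 in EC barcodes with Ackr1, and no fibroblast barcode had a Selp UMI.

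The activated genes followed 3 different orders. Selp was highest in ECs at 54.5 and 25.7 CPM, then in granulocytes at 11.2 and 13.0 CPM, and in sGC ΔPC the EC interval (18.6 to 34.7) overlapped that of granulocytes (5.61 to 25.6). Granulocyte barcodes with Selp, 4 of 236 and 8 of 246, had no UMI of the platelet genes Ppbp, Itga2b, Gp9 and Gp1bb. All granulocyte barcodes together held 0 and 1 such UMIs, at median depths of 2155 and 2416 UMIs, so this says little. Among EC barcodes with Selp, 3 of the 17 and 2 of the 12 had a platelet UMI, and among all ECs 7 and 2 had one. The part of platelet RNA in Selp was not tested. Vcam1 was at 40.7 and 52.1 CPM in ECs and at 46.99 and 47.34 CPM in cancer barcodes, and neither library separated the 2 classes. Fibroblasts, at 36.2 and 41.4 CPM, also lay within the EC interval in sGC Ctr and overlapped it in sGC ΔPC. Icam1 was highest in granulocytes (93.1 and 71.5 CPM), T cells (72.7 and 54.7 CPM) and macrophages (59.5 and 55.5 CPM), above ECs at 38.9 and 36.5 CPM, and lowest in cancer barcodes at 1.41 and 2.25 CPM. The intervals of T cells and ECs overlapped in both libraries. Sele was barely detected, with 4 UMIs in 4 EC barcodes of sGC Ctr and 0 of 96 in sGC ΔPC, where 3 UMIs, the limit taken for a count of 0, would be 1.80 CPM. Gja5, Efnb2, Ephb4, Ackr1 and Selp, 5 of the 10, were thus highest in ECs among 7 classes in both libraries. With at least 50 UMIs in ECs these were 5 of 9 genes, beside 14.5% of all 7269 such genes. Gja5, Ackr1 and Selp reached 50 UMIs only through sGC Ctr ECs, so this count is a description.

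**Figure D1:**
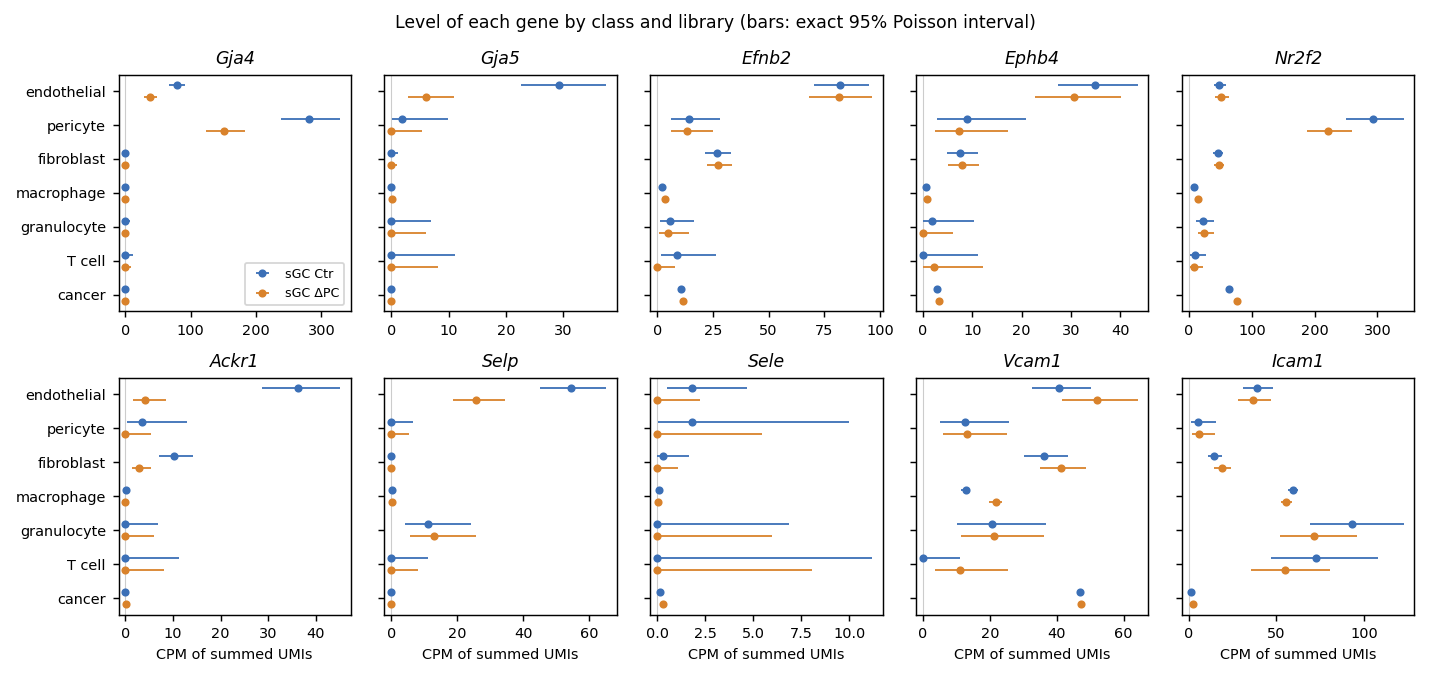
Level of each gene in CPM (x axis, linear, a scale per panel) in the 7 classes (y axis), with sGC Ctr in blue, sGC ΔPC in orange and exact Poisson 95% intervals as bars. Gja4 and Nr2f2 peak in pericytes, Icam1 in leukocytes, and Efnb2, Ephb4 and Selp in ECs.

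Between the libraries, 4 of the 9 genes with at least 50 EC UMIs were at least 2-fold lower in sGC ΔPC ECs and none was 2-fold higher, beside 0.825% and 1.09% of the 7269 genes. Sele had too few UMIs. Gja4 and Gja5 of the arterial group, Ackr1 of the venous group and Selp of the activated group were the 4, while Efnb2, Ephb4, Nr2f2, Vcam1 and Icam1 had ratios whose intervals held 0. Gja5, Ackr1 and Selp reached 50 UMIs only through sGC Ctr, where they were high, so these counts are a description. With a low cancer-cell RNA share 2 of the 9, Gja5 and Ackr1, were 2-fold lower and none higher, beside 0.818% and 0.947% of 6233 genes. The median log2 ratio was -0.19 over the 9 genes and 0.00 over all genes.

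Those 4 differences rested on few barcodes. Gja5 was in 4 EC barcodes of sGC Ctr, and 1 of them held 55 of its 64 UMIs. The other 3 had 5, 2 and 2 UMIs, and the 2 positive barcodes of sGC ΔPC had 8 and 2. Its log2 ratio was -2.29 (exact conditional 95% interval -3.42 to -1.32), and without the top barcode of each library 9 and 2 UMIs were left, with a ratio of -1.79 (-5.04 to 0.48). The level outside that barcode was not distinguishable at this depth.

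Gja4 was in 15 of 74 and 5 of 96 barcodes. In sGC Ctr 3 barcodes with 60, 43 and 35 UMIs held 80.2% of it, and in sGC ΔPC the highest were at 33, 11 and 10. The barcode with 60 Gja4 UMIs was also the one with 55 Gja5 UMIs. Its log2 ratio was -1.06 (-1.50 to -0.64) in all ECs and -0.02 (-0.51 to 0.45) in ECs with a low cancer-cell RNA share, which leaves out the sGC Ctr barcodes with 43 and 35 UMIs, at shares of 32.3% and 32.0%. Without the top barcodes it was -1.50 over all ECs and 0.43 (-0.34 to 1.19) in the low-share ECs. The sign of the Gja4 difference thus changed with the barcodes included. In pericytes, where Gja4 was highest, the log2 ratio was -0.90 (-1.27 to -0.53) over all barcodes and -0.32 (-0.75 to 0.10) in those with a low cancer-cell RNA share.

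Efnb2 was spread over 47 and 34 EC barcodes, from 0 to 19 UMIs with a median of 1 in sGC Ctr and from 0 to 25 with a median of 0 in sGC ΔPC. Its ratio was level, at -0.01 (-0.34 to 0.32), and at 0.06 (-0.29 to 0.41) with a low cancer-cell RNA share. The share of ECs with an Efnb2 UMI was 63.5% and 35.4% at the unequal depths of the libraries. With every barcode thinned to 2000 UMIs, which left out 3 and 6 shallower ones, it was 9.86% (4.06 to 19.3) and 10.0% (4.68 to 18.1), from 7 and 9 barcodes.

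Ackr1 had the largest ratio of the 9 and the fewest positive barcodes apart from Sele. In sGC Ctr 3 barcodes held 59, 13 and 7 UMIs, and in sGC ΔPC 2 held 5 and 2. The log2 ratio was -3.11 (-4.47 to -2.00), and without the top barcodes 20 UMIs in 2 barcodes stood against 2 UMIs in 1 barcode, at -2.94 (-6.08 to -0.90). Fibroblasts, which did not enter the EC gate, also had less Ackr1 in sGC ΔPC, at a log2 ratio of -1.82 (-2.998 to -0.766), from 34 and 10 UMIs, which together are under the minimum of 50.

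The venous Ephb4 and Nr2f2 had intervals that held 0 over all ECs. Ephb4 was in 41 and 28 EC barcodes with at most 8 and 6 UMIs, and its ratio was -0.19 (-0.73 to 0.34). Nr2f2 was in 38 and 36 barcodes with at most 9 and 7 UMIs, at a ratio of 0.09 (-0.34 to 0.51). With barcodes thinned to 2000 UMIs Ephb4 was in 10 of 71 sGC Ctr ECs (14.1%, 6.97 to 24.4) and 0 of 90 sGC ΔPC ECs (upper bound 4.02%), and Nr2f2 in 10 (14.1%) and 6 (6.67%, 2.49 to 13.9), from 11 UMIs or fewer in each library. The thinning was 1 random draw, and the 76 and 51 Ephb4 UMIs of unthinned barcodes, at 34.8 and 30.5 CPM, did not show such a difference. Neither gene was carried by 1 barcode, since the highest held between 8.14% and 11.8% of the UMIs.

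Selp was in 17 and 12 barcodes, with 60, 22 and 6 UMIs in the highest of sGC Ctr and 11, 9 and 6 in those of sGC ΔPC. Its ratio of -1.08 (-1.62 to -0.57) became -0.49 (-1.16 to 0.15) without the top barcode of each library and -0.92 (-1.48 to -0.40) with a low cancer-cell RNA share, both under 2-fold. Vcam1, in 22 and 28 barcodes, had a ratio of 0.35 (-0.09 to 0.80) in all ECs and -0.12 (-0.77 to 0.50) with a low cancer-cell RNA share. Its highest sGC ΔPC barcode, with 22 of 87 UMIs, had cancer markers at 162% of the cancer-barcode median. Icam1, in 26 and 19 barcodes, was at -0.09 (-0.59 to 0.40) and 0.06 (-0.46 to 0.57).

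**Figure D2:**
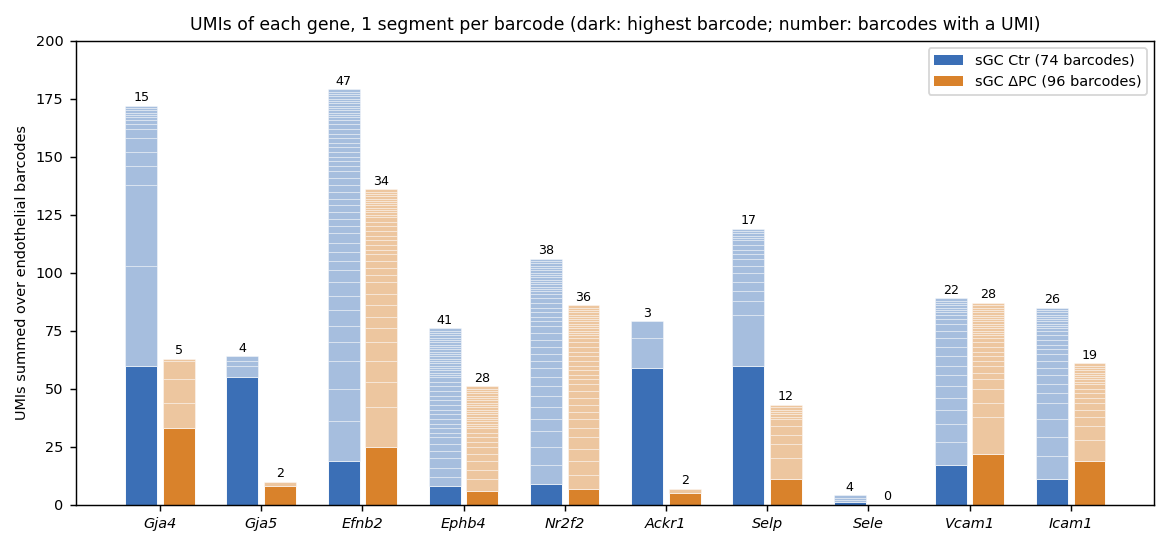
UMIs of each gene (y axis) summed over the EC barcodes of sGC Ctr (blue) and sGC ΔPC (orange), with a segment for each barcode, the highest barcode in the dark shade, and the number of positive barcodes above each bar. A single segment makes up 55 of 64 Gja5 and 59 of 79 Ackr1 UMIs in sGC Ctr, whereas Ephb4 and Nr2f2 are built from many small segments, none above 9 UMIs.

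**Figure D3:**
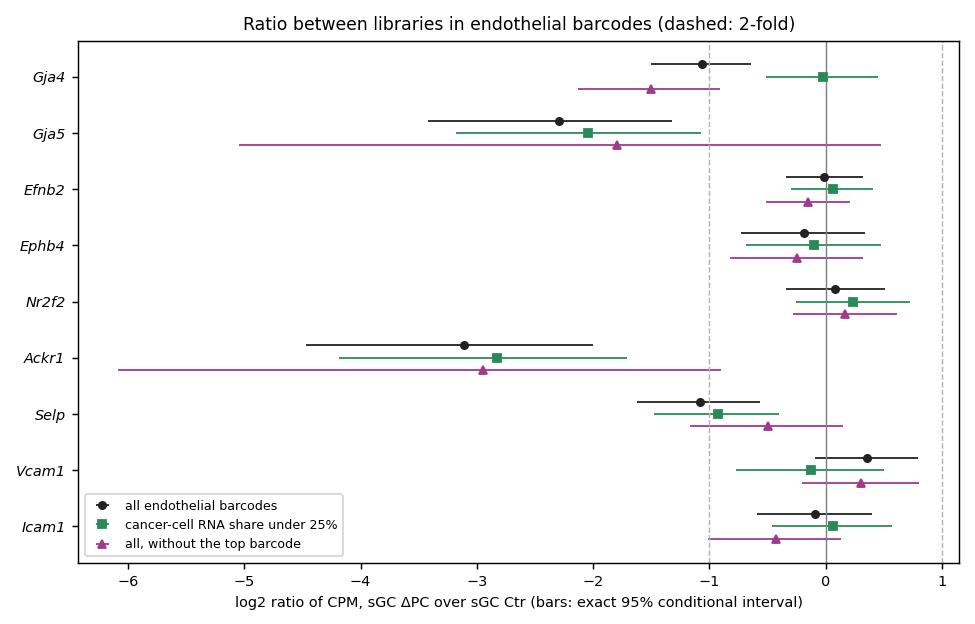
Log2 ratio of CPM, sGC ΔPC over sGC Ctr (x axis), for the 9 genes with at least 50 EC UMIs, with exact conditional 95% intervals, over all EC barcodes (circles), those with a low cancer-cell RNA share (squares) and all without the top barcode of each library (triangles). Gja4 moves from -1.06 to -0.02 with the low share, and the intervals of Gja5 and Selp reach 0 without the top barcode.

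Within ECs the connexin gene Gja4 and the venous gene Nr2f2 were mostly in different barcodes, but not all arterial and venous genes were apart. Efnb2 and Nr2f2 shared 24 barcodes of sGC Ctr and 16 of sGC ΔPC, and Ephb4 was in 9 of 15 and 4 of 5 barcodes with Gja4 and in 31 of 47 and 16 of 34 with Efnb2. Nr2f2 was in 38 of 74 sGC Ctr ECs but in 1 of the 15 with Gja4, and in 36 of 96 sGC ΔPC ECs but in none of the 5 with Gja4. Efnb2 was in 14 of those 15 and in all 5 of those 5. All 5 EC barcodes with Ackr1 also had Selp and Nr2f2, 4 of them had Icam1, and none had Gja4, Gja5 or Efnb2. Of the 165 without Ackr1, 14.5% had Selp, 41.8% Nr2f2, 24.8% Icam1, 12.1% Gja4, 3.64% Gja5 and 49.1% Efnb2. At these shares 5 barcodes are too few to show that Gja4 or Gja5 is apart from Ackr1. The 4 Sele UMIs were all in barcodes with Selp, 2 of them with Ackr1.

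To describe this further, ECs were divided after the data were seen into barcodes with a Gja4 or Gja5 UMI (13 and 5), barcodes with an Ackr1 or Selp UMI (14 and 12), both (3 and 0) and neither (44 and 79). The 3 with both were all of sGC Ctr and included the barcode with the most Gja4 and Gja5, which had 4 Selp UMIs. The first kind made up 17.6% (9.70 to 28.2) and 5.21% (1.71 to 11.7) of ECs and the second 18.9% (10.7 to 29.7) and 12.5% (6.63 to 20.8). Barcodes with neither had median depths of 24155.5 and 8211 UMIs and were shallower than those of the other kinds in sGC ΔPC, at 22194 and 26430, so a gene that was missed cannot be told apart from one that was not expressed. Many barcodes entered a set on 1 UMI: 5 and 6 had a single Selp UMI, and 6 and 1 a single Gja4 UMI. The sets were not limited to a low cancer-cell RNA share. An Ackr1 or Selp barcode of sGC ΔPC with 1 Selp UMI and 94237 UMIs in all had cancer markers at 162% of the cancer-barcode median. It held 22 of the 32 Vcam1 UMIs of its set.

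Efnb2, Nr2f2 and Icam1, which did not define these sets, differed between them in the same direction in both libraries. Their overlap with Gja4 or Ackr1 was counted above in these same barcodes, so the values describe that pattern again and are no separate support. Efnb2 was at 164 CPM in Gja4 or Gja5 barcodes and 43.3 CPM in Ackr1 or Selp barcodes of sGC Ctr, and at 534 and 25.8 CPM in sGC ΔPC. Nr2f2 was at 2.45 and 112 CPM in sGC Ctr, from a single UMI against 39, and at 0 and 98.6 CPM in sGC ΔPC, from 0 against 42 UMIs. Icam1 was at 39.3 and 95.2 CPM in sGC Ctr, from 16 against 33 UMIs, and so lower in the Gja4 or Gja5 barcodes. In sGC ΔPC Icam1 was at 25.05 and 98.6 CPM, again lower, but from 3 against 42 UMIs, 19 of the 42 in 1 barcode. Ephb4 and Vcam1 did not separate the sets, with log2 ratios over both libraries of -0.27 (-1.11 to 0.54) and -0.58 (-1.40 to 0.19). Icam1 in barcodes with neither was at 20.6 and 14.2 CPM, below both sets, of which the Gja4 or Gja5 value of sGC ΔPC rests on 3 UMIs.

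**Figure D4:**
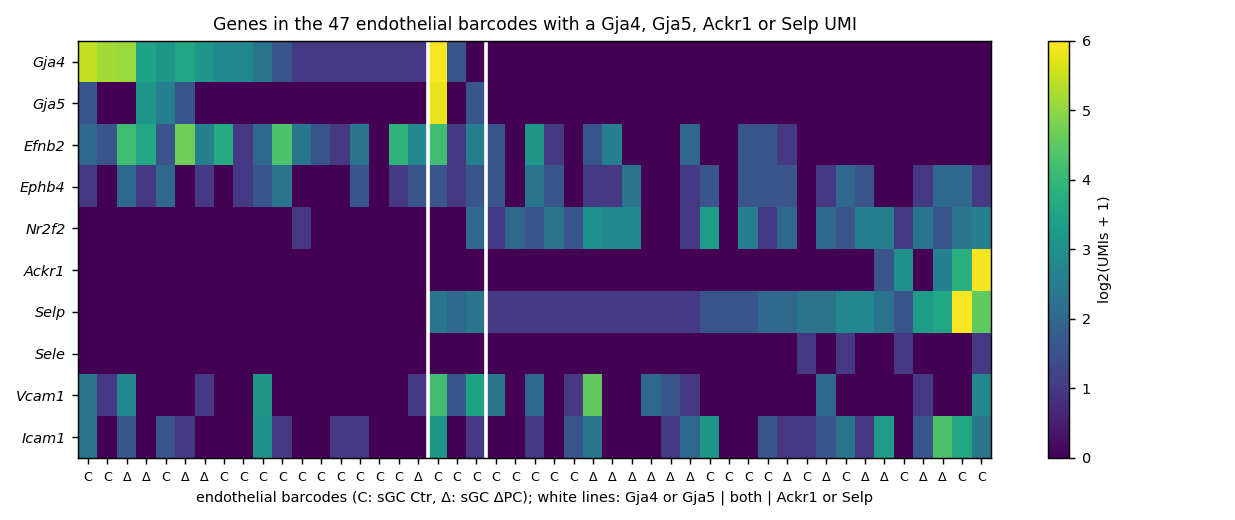
UMIs of the 10 genes (rows, color as log2 of UMIs + 1) in each EC barcode with a Gja4, Gja5, Ackr1 or Selp UMI (columns, C for sGC Ctr and Δ for sGC ΔPC), divided by white lines into 18 with Gja4 or Gja5, 3 with both and 26 with Ackr1 or Selp. The Nr2f2 row is nearly empty on the left and filled in 22 of the 26 columns on the right, and Efnb2 is filled in 17 of the 18 on the left.

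Wider lists of vessel genes were read in the same 2 sets, with 18 and 26 barcodes over both libraries. Of 16 further arterial genes, 13 had at least 30 UMIs in the sets and 6 of these were at least 2-fold higher in Gja4 or Gja5 barcodes, none lower, beside 2.84% of 5593 genes higher and 4.09% lower. Of these, Hey1, Sema3g and Stmn2 reached 30 UMIs only through the Gja4 or Gja5 barcodes, where they were high, so the count is a description. The 6 genes were Hey1, a Notch target (119 against 11.6 CPM), the arterial transcription factor Sox17 (171 against 67.3), Sema3g (96.7 against 1.29), the netrin receptor Unc5b (169 against 42.7), Stmn2 (110 against 18.1) and the chemokine Cxcl12 (383 against 44.0), named here after their values were seen. Stmn2 was level in sGC Ctr, at 36.8 and 40.4 CPM, and came from sGC ΔPC, at 359 and 0 CPM, and 13 of its 14 UMIs in Ackr1 or Selp barcodes were in 1 barcode. Hey1, Sox17, Unc5b and Cxcl12 were higher in Gja4 or Gja5 barcodes in each library, and Sema3g had 7 UMIs against 0 in sGC Ctr and 44 against 1 in sGC ΔPC. The 4 arterial genes with the most EC UMIs, Mecom, Dll4, Fbln5 and Notch4, stayed within 2-fold, at log2 ratios of 0.34, 0.47, -0.78 and 0.61.

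Of 12 venous genes, none was 2-fold higher and 4 were 2-fold lower in Gja4 or Gja5 barcodes. Lrg1, at 351 against 1084 CPM in sGC Ctr and 326 against 575 in sGC ΔPC, was lower in each library. Slco2a1, a prostaglandin transporter, was lower in sGC Ctr, at 22.1 against 101 CPM. In sGC ΔPC it had 2 against 9 UMIs (16.7 against 21.1 CPM), too few to give a direction. A single barcode held 20 of its 44 UMIs in Ackr1 or Selp barcodes. Without the top barcode of each set its ratio was -1.15 (-2.61 to 0.11). Bst1 and Il6st were lower in sGC Ctr, at 12.3 against 104 and 39.3 against 216 CPM, and higher in sGC ΔPC, at 83.5 against 32.9 and 159 against 103. Emcn, Tmem252 and Vwf, the other genes of the list with the most EC UMIs, were at log2 ratios of -0.05, -0.28 and -0.61. None of 8 capillary genes passed 2-fold, with Gpihbp1, Plvap, Flt1 and Rgcc at 0.48, -0.19, -0.08 and 0.53. Of 8 tip-cell genes Angpt2 alone was 2-fold lower in Gja4 or Gja5 barcodes (-1.41), and Trp53i11, Apln, Mcam and Pgf were at -0.47, -0.88, -0.02 and -0.27. Angpt2 was at 159 against 242 CPM in sGC Ctr and, from 5 against 188 UMIs, at 41.7 against 441 in sGC ΔPC. Apln and Trp53i11 were close to level in sGC Ctr, at 363 against 366 and 584 against 571 CPM. In sGC ΔPC they had 1 against 274 and 8 against 300 UMIs. The level Apln value depended on 1 barcode, which held 85 of the 148 Apln UMIs of the sGC Ctr Gja4 or Gja5 barcodes. Without the top barcode of each set Apln, too, was over 2-fold lower, at -1.50 (-1.92 to -1.11) over both libraries. Angpt2 was then at -1.24 (-1.71 to -0.80). Of 10 activation genes with enough UMIs Tnfaip3, Cxcl2 and Ccl2 were lower over both libraries, but in sGC Ctr alone each was higher in Gja4 or Gja5 barcodes, at 17.2 against 8.65, 81.0 against 11.5 and 164 against 118 CPM. The sGC Ctr values rest on few barcodes. In the Gja4 or Gja5 set a single barcode held 36 of 69 Ccl2 UMIs and a single barcode 28 of 35 Cxcl2 UMIs, and Tnfaip3 had 7 UMIs. Of the 148 Cxcl2 UMIs in Ackr1 or Selp barcodes 138 were in 1 barcode. Without the top barcode of each set the ratio over both libraries was 0.18 for Cxcl2. It was then -1.82 (-2.40 to -1.27) for Ccl2 and -1.58 (-4.03 to 0.29) for Tnfaip3. Nfkbia and Nfkb2 were at -0.40 and -0.25.

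**Figure D5:**
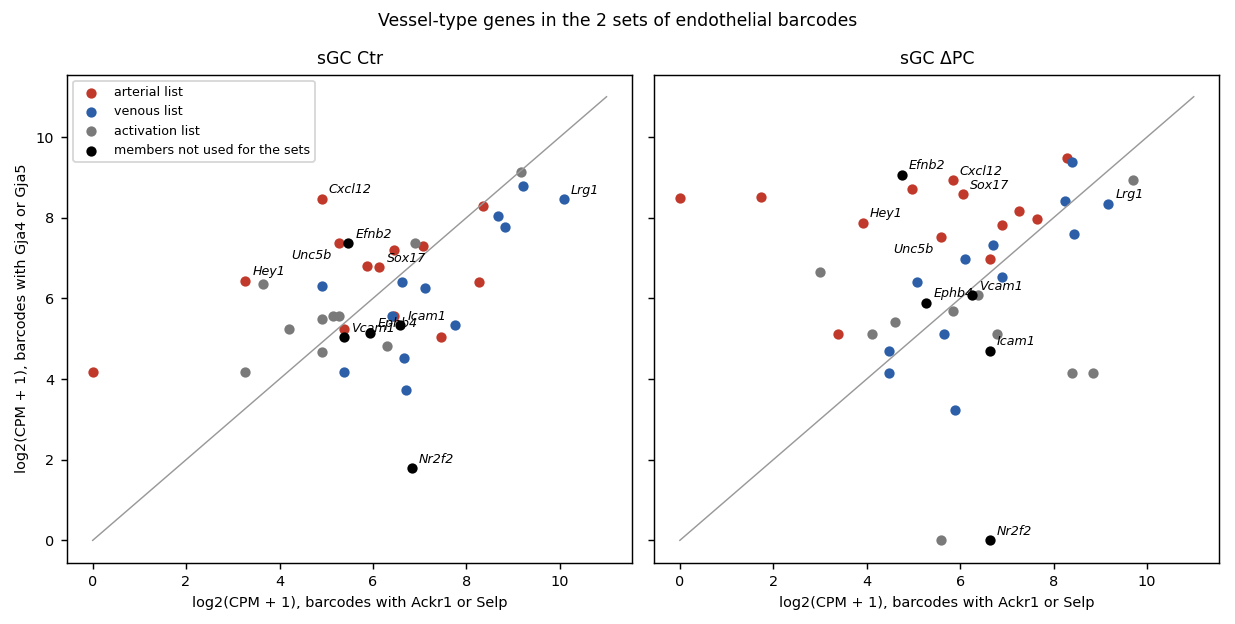
Level, as log2 of CPM + 1, of arterial, venous and activation list genes and of the 5 genes not used for the sets, in EC barcodes with Ackr1 or Selp (x axis) and with Gja4 or Gja5 (y axis), for sGC Ctr (left) and sGC ΔPC (right), with the line of equal level. Efnb2, Hey1, Cxcl12, Unc5b and Sox17 lie above the line and Nr2f2, Icam1 and Lrg1 below it in both libraries.

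Between the libraries, over all ECs, the lists were mixed. Of all 7269 genes 0.825% were at least 2-fold lower and 1.09% at least 2-fold higher in sGC ΔPC. Of 14 arterial genes 2 were at least 2-fold lower in sGC ΔPC, Stmn2 (113 against 43 UMIs, 84 and 29 of them in 1 barcode each) and Fbln2 (187 against 69), and Edn1, which encodes the vasoconstrictor endothelin 1, was higher (100 against 218 UMIs in 16 and 26 barcodes, log2 ratio 1.51, 1.16 to 1.87). With a low cancer-cell RNA share Stmn2 and Fbln2 were no longer 2-fold lower (-0.84 and -0.73) and Edn1 was at 1.84. Of the 4 arterial genes with the most UMIs, Mecom, Dll4 and Notch4 were at 0.31, 0.06 and -0.25, and Fbln5, with 108 of 346 UMIs of sGC Ctr in 1 barcode, at -0.91.

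Of 12 venous genes Slco2a1 was 2-fold lower (62 against 20 UMIs in 20 and 6 barcodes, log2 ratio -1.24, and -0.99 with a low cancer-cell RNA share). Emcn, Lrg1, Tmem252 and Vwf were at -0.22, -0.62, -0.11 and -0.21. The 12 venous genes had a median of -0.16, beside 0.00 over all genes. With a low cancer-cell RNA share the median of the 11 tested was -0.18. The 10 EC markers together were also lower in sGC ΔPC ECs, at 6378 and 5257 CPM over all ECs. With the low share these markers were at 7495 and 6691 CPM. A fall particular to venous genes is thus not shown. Of 8 capillary genes Car4 (1.11) and Cxcr4 (1.06) were 2-fold higher and none lower, beside 1.09% and 0.825% of all genes. Without the top barcodes Car4 had only 23 and 38 UMIs, at 1.09 (0.31 to 1.90). Cxcr4 then had 90 and 145, at 1.09 (0.70 to 1.48). Gpihbp1, Plvap, Flt1 and Rgcc were at -0.36, -0.38, -0.51 and -0.08. The tip-cell gene Esm1 was 2-fold higher at 1.21 (0.94 to 1.48), from 176 and 311 UMIs in 30 and 41 barcodes, and at 1.49 with a low cancer-cell RNA share. Trp53i11, Apln, Mcam and Pgf were at 0.20, 0.46, 0.27 and -0.06.

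Of 10 activation genes with enough UMIs 3 were 2-fold higher and none lower in sGC ΔPC ECs, beside 1.09% and 0.825% of all 7269 genes. Ccl2 was at 510 UMIs in 47 barcodes of sGC Ctr and 1591 in 70 of sGC ΔPC, a log2 ratio of 2.03 (1.88 to 2.18), and at 1.43 with a low cancer-cell RNA share and without the top barcodes. Cxcl2 was at 2.11, and at 1.05 without the top barcode of each library, which in sGC ΔPC held 138 of its 181 UMIs. Cxcl1, at 1.13, was at 0.69 without the top barcodes and at -0.55 with a low cancer-cell RNA share. Nfkbia and Nfkb2 were at -0.09 and 0.30. The adhesion genes Selp, Vcam1 and Icam1 were not among the higher genes.

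The genes most like each member were found in 2 ways, as descriptions. Over the 14 profiles of 7 classes in 2 libraries, which share libraries and depth, Gja4 was closest to Sncg, Hrct1 and Tspan15 (Pearson r of 0.98 each), Nr2f2 to Nexn, Mxra7 and Cald1 (0.96, 0.95 and 0.94), Efnb2 to Lrp5, Pxdn and Creb3l2 (0.94, 0.93 and 0.92) and Selp to Dach1, Rasip1 and Gm37800 (0.98, 0.97 and 0.95). Gja5 was closest to Cdkl1, Gm32688 and Ccm2l (0.97, 0.97 and 0.96), Ackr1 to Zfp521, Maged1 and Tspan18 (0.95, 0.93 and 0.92) and Sele to Cyth2 (0.77). Ephb4 was closest to Smad5, Apbb2 and Fscn1 (0.97, 0.96 and 0.96), Vcam1 to Rtkn, Me1 and Dusp18 (0.92, 0.92 and 0.91) and Icam1 to Fxyd5, Parp14 and Samd9l (0.97, 0.96 and 0.95). Among the 115 low-share ECs, barcodes with Gja4 held 10.7-fold more Cxcl12 (478 against 44.8 CPM) and 9.12-fold more Glul, the glutamine synthetase gene, than those without. Barcodes with Nr2f2 held 20.9-fold more Spc25 (35 UMIs against 1) and 19.0-fold more Hist1h2ap (255 against 8), genes of dividing cells. Barcodes with Vcam1 held 16.3-fold more Cxcl10 and 8.67-fold more Cxcl9, both induced by interferon gamma, and those with Selp held 8.72-fold more of the complement gene Cfb. Icam1 barcodes held 9.87-fold more Gadd45b. Of the 4 low-share barcodes with Ackr1, all had Icam1, at 711 CPM against 33.5 CPM in the other 111. Apart from Ackr1 (12033 against 18256 UMIs), EC barcodes with a UMI of a gene were deeper than those without, with medians of 27952 against 9469 UMIs for Nr2f2, 24618.5 against 12038 for Vcam1 and 25104.5 against 15735.5 for Gja4, and the part of depth in these ratios was not tested.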

How the data were processed

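Single cells of LLC tumors were sequenced with 10x 3′ chemistry, and the authors deposited raw UMI counts from Cell Ranger 6.1.1 on mm10 for 2 libraries, sGC Ctr and sGC ΔPC, with 32285 genes, 15007 and 25631 barcodes and 487859656 and 436352742 UMIs. Barcodes were kept under 10% mitochondrial UMIs and within 3 median absolute deviations of log UMIs and log genes. Classes came from marker gates: at least 20% of the level at the 99.9th percentile and 4 markers (3 for cancer), with barcodes that passed in several non-cancer classes left out. UMIs were summed per class and given as CPM with exact Poisson, binomial or conditional 95% intervals. With 1 pooled library per group there was no test. Genes needed 50 EC UMIs (30 between barcode sets). Scrublet in scanpy 1.11.5 marked 520 sGC Ctr barcodes, 5 of them ECs, and 0 of 22498 in sGC ΔPC, where the caller did not work, so doublets were kept.

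Python 3.11.15, numpy 2.4.6, scipy 1.17.1 and pandas 2.3.3 were used, and the scripts were tested on simulated data. The 10 genes and the lists were chosen with earlier results of these data known, and the barcode sets, the platelet genes and the counts without top barcodes after the data were seen. Named were the 10 genes, the 4 genes of each list with the most EC UMIs, the 3 genes closest to each of the 10 by Pearson r of log2(CPM + 1) over classes or by the ratio of CPM in ECs with and without its UMI, and genes past 2-fold, which were added after their values were seen. Not every gene of the closeness rule is printed.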

Additional observations from a re-analysis of the deposited data

Results flagged for a closer look

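Gja4 moved in opposite directions in 2 classes. Its log2 ratio of sGC ΔPC over sGC Ctr was -1.06 in EC barcodes, from 172 and 63 UMIs, and 1.05 in cancer barcodes, from 27 and 48 UMIs at 0.0730 and 0.151 CPM. There is 1 library on each side, the difference was not tested, and in ECs with a low cancer-cell RNA share the ratio was -0.02.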

How the results depend on the processing

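The share of ECs in sGC ΔPC was 0.653% with the gate at 10% of the reference, 0.271% at 40% and 0.244% with a cancer-cell RNA share under 25%, against 0.427%. The number of the 10 genes at least 2-fold lower in sGC ΔPC, 4, became 2 (Gja5 and Ackr1) with the gate at 40%, with the low cancer-cell RNA share and per 1000 UMIs of the EC markers. With barcodes thinned to 2000 UMIs, in 71 and 90 barcodes, Gja4 (10 and 5 UMIs), Nr2f2 (11 and 6), Ackr1 (8 and 1) and Selp (13 and 5) were over 2-fold lower. Ephb4 (11 and 0) and Gja5 (4 and 0) fell to 0 in sGC ΔPC. At that depth 1 gene was 2-fold higher (Icam1, 5 and 14 UMIs) and 3 were highest in ECs against 5. All of this rests on counts near the limit of detection. Other filters on UMIs, mitochondrial share, marker number and doublets left the numbers of lower, higher and EC-highest genes unchanged. Without the top barcodes, an alternative added after the data were seen, 3 were lower. Changing 1 choice at a time, the log2 ratio ran from -1.50 to -0.02 for Gja4, -2.66 to -1.79 for Gja5, -3.48 to -2.75 for Ackr1, -1.83 to -0.49 for Selp, -0.63 to 0.09 for Ephb4 and -1.22 to 0.36 for Nr2f2. The ranges of Gja5 and Ephb4 leave out the thinning, where 0 UMIs in sGC ΔPC gave no finite ratio, so both could lie lower. With the low cancer-cell RNA share and without the top barcodes together the log2 ratio was 0.43, -0.79, -2.17 and -0.28 for Gja4, Gja5, Ackr1 and Selp. Of the single-gene values under the alternatives 79 moved by less than their interval and 9 by more. No paired analysis was possible because each group has 1 library and the labels carry no replicate numbers.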
